A study of Capra hircus with 29 samples.

Results

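Transcripts of the B-type cyclins, of the kinase CDK1 and of the enzymes that switch this kinase on or off were followed in goat oocytes. The members were chosen by gene symbol in the table of oocyte expression values, and the symbols were CCNB1, CCNB2, CCNB3, CCNA2, CDK1, WEE2, PKMYT1, CDC25A, CDC25B and CDC25C. All 10 symbols had a row, and they took up 13 of the 21343 rows of the table because CCNB1 stood on 3 rows and CDC25B on 2.

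A fully grown oocyte waits in prophase of the first meiotic division until the surge of luteinizing hormone. It leaves this arrest when maturation-promoting factor, the complex of a B-type cyclin with the kinase CDK1, becomes active. WEE2, the oocyte form of the WEE1 kinases, and PKMYT1 phosphorylate CDK1 and hold it inactive, and the CDC25 phosphatases remove these phosphates. CCNA2 encodes cyclin A2, another partner of CDK1 and CDK2, and the anaphase-promoting complex marks the B cyclins for destruction. Much of this control acts on proteins and on the translation of stored transcripts, which RNA levels do not measure.

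The oocytes came from ovaries of Ji'ning grey goats, a breed known for large litters, and no other treatment was named. The labels describe a high fertility population, with litters above 3 kids, and a low fertility population, with litters under 2 kids; the methods text places the limits at 3 kids or more and at 2 kids or fewer, and ages were not given. In each population oocytes came from large, medium or small follicles, which gave the groups HLO, HMO and HSO for high and LLO, LMO and LSO for low fertility. There were 5 samples per group and 4 of HSO, 29 in all. Each sample held a few oocytes, and for the high fertility population the oocytes of a stage were pooled over goats and then divided into samples. The samples of a group may therefore share goats, and p-values measure the spread between samples, which may be partly technical.

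Expression is given in FPKM, sequenced fragments scaled by the length of the exons and by the mapped fragments of the library. Levels, shares and ratios of different genes can thus be compared per length, but only within the polyadenylated RNA that was enriched for the libraries. How much of a gene's RNA this step left out is not known. The values are not counts, and the depth behind each value cannot be read from the table. FPKM sums ranged from 222697 in LMO replicate 2 to 490048 in HMO replicate 1, and 6646 to 8689 genes per sample lay above 0.5 FPKM. The 14 oocyte markers varied widely, with medians of 1274 FPKM for ZP3, 1215 for BTG4, 246 for GDF9 and 167 for BMP15. Others were low, with medians of 0.888 FPKM for DAZL, 0.334 for NOBOX and 0.274 for NLRP5, and OOSP2 reached at most 0.119 FPKM. Of 14 granulosa cell markers 12 had a row; AMH and AMHR2 were listed at 0 in all samples, FSHR reached at most 0.283 FPKM and LHCGR 0.0460, whereas STAR ranged from 4.32 to 39.0 FPKM. Of 7 leukocyte markers 6 had a row, and their summed level ranged from 1.07 to 5.80 FPKM. LLO replicate 2 had the lowest ZP3 (57.5 FPKM) and the lowest KIT (0.860 FPKM) of all samples, and the fewest genes above 0.5 FPKM (6646). The summed level of the 14 oocyte markers was lowest in another sample, LLO replicate 3 (1593 FPKM). Results that rest on LLO replicate 2 are given with and without it.

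CCNB2 and CCNB1 were the most abundant members, at 551 ± 475 and 172 ± 134 FPKM (SD, n = 29). The mean of CCNB2 was above that of 99.3% of the genes in the table. WEE2 (42.5 ± 32.7 FPKM), CCNB3 (31.5 ± 8.40), CDK1 (24.6 ± 19.3), CCNA2 (19.0 ± 9.77) and CDC25C (18.9 ± 11.5) followed. CDC25B (0.523 ± 0.357 FPKM), CDC25A (0.450 ± 0.302) and PKMYT1 (0.149 ± 0.168) were below 1 FPKM on average, and their means were above those of 61.3%, 59.8% and 49.8% of the genes in the table. CCNB2 exceeded CCNB1 in 28 of 29 samples, the exception being LLO replicate 2, and CCNB1 exceeded WEE2 in 29 of 29. The neighbours WEE2 and CCNB3, CCNB3 and CDK1, CDK1 and CCNA2, and CCNA2 and CDC25C differed within a sample, on the log2(FPKM + 1) scale, by less on average than the SD of that difference over samples. Farther apart in the order, WEE2 exceeded CDK1 by 0.86 (SD 0.68) and CDC25C by 0.97 (SD 0.89), and CCNB3 exceeded CCNA2 by 0.81 (SD 0.73), each in 26 of 29 samples. CDC25B and CDC25A differed by less than the SD of their difference.

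In each family a single transcript had the largest median share, less clearly among the B cyclins. CCNB2 made up a median of 63.0% of the summed FPKM of CCNB1, CCNB2 and CCNB3, CCNB1 25.2% and CCNB3 4.70%. The share of CCNB2 ranged from 29.9% in LLO replicate 2, where CCNB1 made up 65.4%, to 83.3% in LLO replicate 1. CDC25C made up a median of 95.4% of the summed CDC25 transcripts, and its lowest share was 50.5% in LSO replicate 1, where CDC25C itself was at 2.35 FPKM. WEE2 made up a median of 99.8% of the sum of WEE2 and PKMYT1, and WEE1, the somatic relative of WEE2, reached at most 0.239 FPKM in any sample. The additional rows were far lower than the main row of their symbol: the other CCNB1 rows (ENSCHIG00000022386 and ENSCHIG00000021194) reached at most 1.62 and 0.0281 FPKM, and the other CDC25B row (ENSCHIG00000010437) 0.552 FPKM. How reads were shared among rows of a symbol is not known, so these rows are uncertain, and CCNB1 (ENSCHIG00000016273) and CDC25B (ENSCHIG00000015422) are described by their main row.

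**Figure D1:**
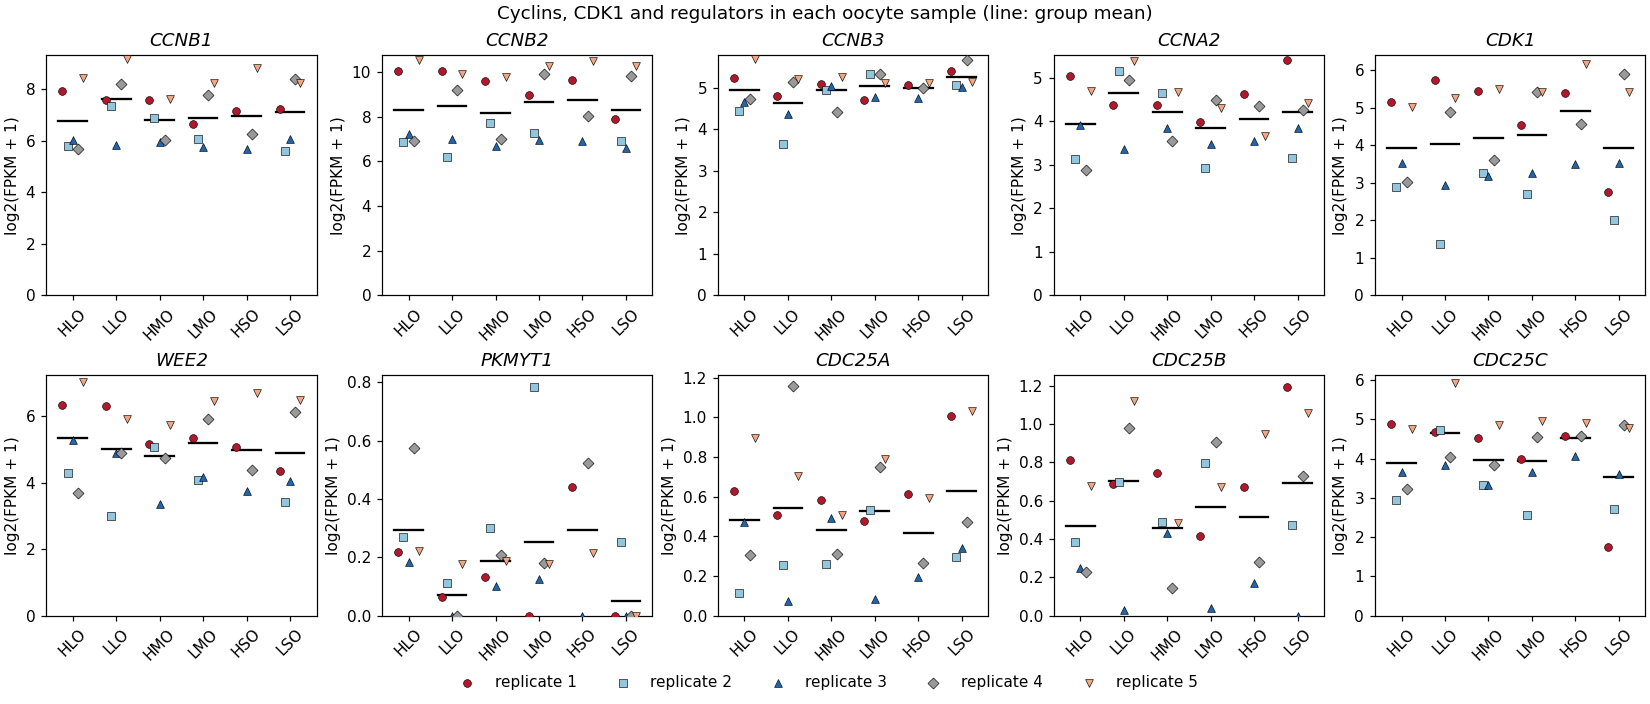
Level of each member on the scale log2(FPKM + 1) (vertical axis, starting at 0, scaled per panel) in the 6 groups (horizontal axis); a point is 1 sample, its colour and shape give the replicate number in the labels, and the line is the group mean. For the B cyclins, CDK1 and WEE2 the points of the high and low fertility groups overlap at every stage, while replicates 1 and 5 mostly lie above replicates 2 and 3.

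CCNB2, which encodes cyclin B2 (ENSCHIG00000014721), was the cyclin with the highest level. Its highest sample was 14.6 times its lowest in LLO, and 8.35 times without LLO replicate 2. In replicates 1 to 5 it was at 1060.0, 116, 147, 118 and 1498 FPKM in HLO and at 1073, 73.4, 129, 579.9 and 963 FPKM in LLO. In medium follicles it was at 786, 209.9, 103, 129 and 868 FPKM in HMO and at 497, 154, 124, 965 and 1222 FPKM in LMO. In small follicles it was at 788, 120.1, 258 and 1435 FPKM in HSO replicates 1, 3, 4 and 5 and at 236, 119, 95.8, 898 and 1219 FPKM in LSO. High and low samples occurred in every group, and the ranges of the high and low fertility groups overlapped at each stage. The group means were 588 ± 649.8 (SD, n = 5) in HLO, 564 ± 461 (n = 5) in LLO, 419 ± 375 (n = 5) in HMO, 592 ± 489 (n = 5) in LMO, 650.3 ± 597 (n = 4) in HSO and 514 ± 513 FPKM (n = 5) in LSO. The SD was close to the mean in each group.

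CCNB1 encodes cyclin B1, the B cyclin best known as the partner of CDK1 when the oocyte leaves prophase arrest. It was at 241, 53.5, 64.4, 49.6 and 341 FPKM in HLO replicates 1 to 5 and at 188, 160.2, 55.7, 290.1 and 562 FPKM in LLO. In medium follicles it was at 189.7, 117, 60.8, 64.4 and 194 FPKM in HMO and at 97.9, 65.2, 53.0, 217 and 302 FPKM in LMO. In small follicles it was at 142, 49.3, 74.6 and 450.1 FPKM in HSO replicates 1, 3, 4 and 5 and at 149.6, 47.1, 66.5, 332 and 296 FPKM in LSO. Its values never fell below 47.1 FPKM, and replicate 3 was between 49.3 and 66.5 FPKM in all 6 groups. The group means were 149.9 ± 134 (SD, n = 5) in HLO, 251 ± 193 (n = 5) in LLO, 125 ± 64.8 (n = 5) in HMO, 147 ± 108 (n = 5) in LMO, 179 ± 185 (n = 4) in HSO and 178 ± 131 FPKM (n = 5) in LSO.

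CDK1 (ENSCHIG00000000353), the catalytic subunit, varied over a wider ratio than its cyclin B1 partner. It was at 34.7, 6.41, 10.5, 7.05 and 31.5 FPKM in HLO replicates 1 to 5 and at 52.3, 1.58, 6.74, 28.5 and 37.5 FPKM in LLO. In medium follicles it was at 42.4, 8.52, 8.12, 11.2 and 43.7 FPKM in HMO and at 22.0, 5.50, 8.58, 41.8 and 41.3 FPKM in LMO. In small follicles it was at 40.9, 10.2, 22.5 and 70.7 FPKM in HSO replicates 1, 3, 4 and 5 and at 5.72, 3.02, 10.5, 58.6 and 41.7 FPKM in LSO. Replicates 2 and 3 were at or below 10.5 FPKM in every group, and replicate 5 was at or above 31.5 FPKM in every group. The group means ranged from 18.0 ± 13.9 FPKM (SD, n = 5) in HLO to 36.1 ± 26.3 FPKM (n = 4) in HSO.

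WEE2 (ENSCHIG00000018792), the inhibitory kinase of the oocyte, followed a similar division of the samples. It was at 80.9, 18.8, 37.9, 12.02 and 131 FPKM in HLO replicates 1 to 5 and at 79.4, 7.002, 28.8, 28.8 and 59.3 FPKM in LLO. In medium follicles it was at 34.8, 32.9, 9.32, 25.6 and 53.0 FPKM in HMO and at 39.997, 16.0, 17.2, 59.9 and 87.2 FPKM in LMO. In small follicles it was at 32.6, 12.4, 19.8 and 104 FPKM in HSO replicates 1, 3, 4 and 5 and at 19.4, 9.79, 15.7, 69.9 and 89.5 FPKM in LSO. Replicate 5 was the highest sample in HLO, HMO, LMO, HSO and LSO, and replicate 1 was the highest in LLO. PKMYT1, the membrane-bound inhibitory kinase, was listed at 0 in 8 samples and reached its maximum of 0.724 FPKM in LMO replicate 2. That sample had the lowest FPKM sum of all (222697) and the highest summed granulosa (39.8 FPKM) and leukocyte markers (5.80 FPKM). In large follicles the values of PKMYT1 did not overlap, from 0.137 to 0.490 FPKM in HLO and from 0 to 0.130 FPKM in LLO. They overlapped in medium and small follicles. PKMYT1 did not pass the filter of 0.5 FPKM in at least 4 samples and was not tested. The share of genes whose groups did not overlap in large follicles, 0.432%, was taken over genes that passed the filter. No such share is at hand for genes as low as PKMYT1.

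Among the activating phosphatases, CDC25C (ENSCHIG00000024676) had group means between 14.7 ± 11.9 (SD, n = 5) in LSO and 27.7 ± 18.5 FPKM (n = 5) in LLO. Its extremes lay in the low fertility groups, with 59.3 FPKM in LLO replicate 5 and 2.35 FPKM in LSO replicate 1. CDC25A ranged from 0.0530 to 1.23 FPKM and was above 0.5 FPKM in 10 of 29 samples. CDC25B ranged from a listed 0 in LSO replicate 3 to 1.29 FPKM in LSO replicate 1, and was above 0.5 FPKM in 15 samples. CCNB3, which encodes the B cyclin known for its part in the anaphase of meiosis I, was the steadiest member relative to its mean, from 11.5 to 50.4 FPKM, and its group means lay between 25.6 ± 10.2 (LLO, n = 5) and 37.8 ± 7.50 FPKM (LSO, n = 5). CCNA2 had group means between 14.4 ± 6.09 (LMO, n = 5) and 27.0 ± 12.6 FPKM (LLO, n = 5).

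To ask whether fertility was associated with the level of the maturation-promoting factor transcripts, high and low fertility oocytes were compared at each stage. No member passed the test at any stage, and no tested member had groups that did not overlap. The comparison used limma's moderated test on log2(FPKM + 1) with Benjamini-Hochberg adjustment over all genes tested; 9 members were tested in large and small follicles and 8 in medium follicles, where CDC25A did not pass the filter. In HLO against LLO, 0 of 9 members had an adjusted p under 0.05 (background 0% of 8328 genes) and 0 of 9 an unadjusted p under 0.05 (background 4.14%; groups that do not overlap, background 0.432%). In HMO against LMO the counts were 0 of 8 adjusted (background 0.0715% of 8390 genes) and 0 of 8 unadjusted (background 8.67%; not overlapping, 1.7%). In HSO against LSO they were 0 of 9 adjusted (background 0.0119% of 8376 genes) and 0 of 9 unadjusted (background 4.41%; not overlapping, 2.05%). Over the 3 stages together, with the stage as a covariate, 0 of 9 members were called after adjustment (background 0.0103% of 9692 genes) and 0 of 9 before it (background 9.99%). The lowest adjusted p of any member by limma was 0.828 in large, 0.777 in medium and 0.880 in small follicles, and 0.657 over all stages. An exact permutation test per member also called 0 members at each stage.

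The sizes behind these tests were small against wide intervals. On the log2(FPKM + 1) scale, which understates changes of low genes, CCNB1 differed between HLO and LLO by -0.85 (95% interval -2.42 to 0.72, limma adjusted p = 0.828). In medium follicles CCNB1 differed by -0.08 (-1.26 to 1.10, limma adjusted p = 0.982), and in small follicles by -0.13 (-1.77 to 1.51, limma adjusted p = 0.980). These intervals hold a change of more than 1 log2 unit toward lower CCNB1 in high fertility oocytes at every stage, so such a change could not be told from no change. CDK1 differed by -0.12 (-1.88 to 1.64) in large, -0.07 (-1.49 to 1.36) in medium and 0.98 (-0.86 to 2.82) in small follicles, with limma adjusted p of 0.973, 0.988 and 0.880. WEE2 differed by 0.33 (-1.29 to 1.95) in large, -0.38 (-1.59 to 0.82) in medium and 0.08 (-1.59 to 1.74) in small follicles, with limma adjusted p of 0.917, 0.851 and 0.990. Without LLO replicate 2 the differences in large follicles were -0.92 for CCNB1, -0.79 for CDK1, -0.73 for CCNB2 and -0.17 for WEE2, the last of the opposite sign, with limma adjusted p of 0.869, 0.869, 0.876 and 0.965. With that sample the CCNB2 difference was -0.16 (limma adjusted p = 0.968). Over all stages the differences were -0.36 (-1.20 to 0.47) for CCNB1, 0.24 (-0.75 to 1.22) for CDK1 and 0.00 (-0.85 to 0.86) for WEE2.

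**Figure D2:**
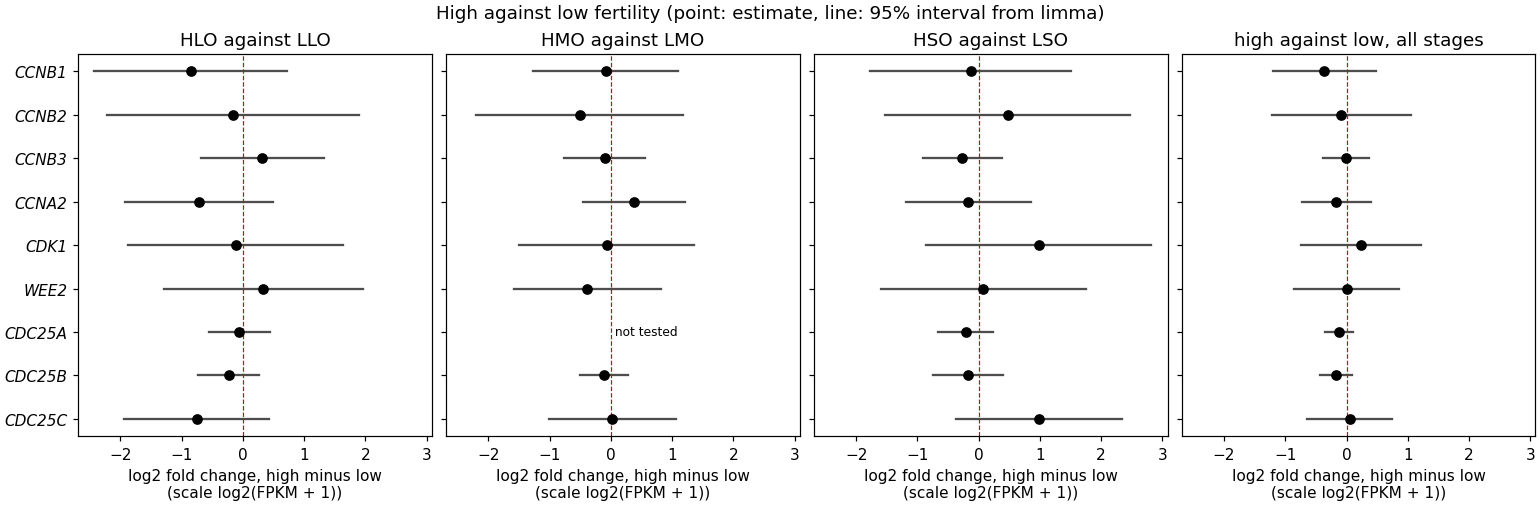
Log2 fold change of high minus low fertility oocytes (horizontal axis, on the scale log2(FPKM + 1)) for the tested members (vertical axis), per stage and over all stages; points are limma estimates and lines 95% intervals (CDC25A was not tested in HMO against LMO). Every interval crosses 0, and the intervals of CCNB1, CCNB2, CDK1 and WEE2 are wider than those of CCNB3, CDC25A and CDC25B.

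As a whole, the median difference of the tested members was -0.16 in large, -0.09 in medium and -0.13 in small follicles, beside medians of -0.09, -0.07 and -0.01 over all genes tested. Of the tested members, 2 of 9, 2 of 8 and 4 of 9 had a positive estimate. CDC25C, the main CDC25 transcript, gave the lowest unadjusted p in large and small follicles, with estimates of opposite sign (-0.75, SE 0.55, and 0.99, SE 0.62; limma adjusted p = 0.828 and 0.880). The test of whether the fertility difference of CDC25C changed with stage gave an unadjusted p of 0.115 (limma adjusted p = 0.751). That interaction test called 0 of 9 members after adjustment (background 0% of 9692 genes) and 0 of 9 before it (background 7.89%); its unadjusted p was 0.700 for CCNB1, 0.602 for CDK1 and 0.785 for WEE2 (limma adjusted p = 0.955, 0.943 and 0.964).

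In medium follicles CCNB2 was not called when every sample had equal weight (-0.51, limma adjusted p = 0.863), but it was called with unequal weights. With limma's array weights, which give deviating samples less weight, CCNB2 was lower in HMO than in LMO by -2.04 (adjusted p = 0.0461), and the background rose from 0.0715% to 12.1% of genes, with a median of -0.32 over all genes. Under these weights CCNB1, CDK1 and WEE2 in the same comparison had adjusted p of 0.0801, 0.0895 and 0.0582.

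Follicle size was compared to ask whether the members' transcripts changed as the follicle grew. Over the 3 stages, with the population as a covariate, limma's F-test called 0 of 9 members after adjustment (background 0% of 9692 genes) and 0 of 9 before it (background 1.66%). The unadjusted p was 0.794 for CCNB1, 0.804 for CDK1 and 0.894 for WEE2, and no member had an adjusted p under 0.99998 by limma. In the 6 comparisons of pairs of stages within a population 0 of 9 members were called, adjusted or unadjusted, beside the following backgrounds. In high fertility oocytes the unadjusted backgrounds were 3.84% of genes in HLO minus HMO (adjusted 0.0206%), 0.815% in HLO minus HSO and 3.49% in HMO minus HSO. In low fertility oocytes they were 10.8% in LLO minus LMO, 10% in LLO minus LSO and 3.44% in LMO minus LSO, and except for HLO minus HMO the adjusted background was 0%. In high fertility oocytes CCNB1 differed between large and small follicles by -0.21 (95% interval -1.75 to 1.34), CDK1 by -0.98 (-2.78 to 0.83) and WEE2 by 0.36 (-1.23 to 1.95). In low fertility oocytes the same differences were 0.51 (-0.95 to 1.97) for CCNB1, 0.12 (-1.58 to 1.82) for CDK1 and 0.11 (-1.39 to 1.61) for WEE2. The members nearest the limit were CCNB3 and CDC25C in LLO minus LSO, with differences of -0.62 (SE 0.31, unadjusted p = 0.0521, limma adjusted p = 0.499) and 1.10 (SE 0.55, unadjusted p = 0.0561, limma adjusted p = 0.502), the comparison with the background of 10%. Without LLO replicate 2 these differences were -0.38 (unadjusted p = 0.207) and 1.08 (unadjusted p = 0.0811), each with a limma adjusted p of 0.877, and those of CDK1 and WEE2 were 0.79 and 0.61, with limma adjusted p of 0.878 and 0.9004.

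The spread inside the groups followed the replicate number of the samples. The labels number the samples of a group from 1 to 5 and do not say what a number marks; the comparison by number was added after the values had been seen. By limma's F-test with the group as a covariate, 7 of 9 members differed between numbers at an adjusted p under 0.05, beside a background of 50.5% of 9692 genes (58% unadjusted), so the difference by number was not particular to the members. The adjusted p by limma was 3.55e-05 for CCNB2, 0.000204 for CCNB1, 0.000209 for CDK1, 0.000723 for WEE2, 0.00725 for CDC25B, 0.0122 for CDC25C and 0.0195 for CDC25A. CCNA2 and CCNB3 did not pass, with limma adjusted p of 0.0882 and 0.264.

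CCNB2 had a mean of 739.9 ± 326 FPKM (SD, n = 6) in samples numbered 1 and 1201 ± 249.7 FPKM (n = 6) in those numbered 5. In samples numbered 2 and 3 it had means of 135 ± 50.9 (n = 5) and 119.8 ± 18.4 FPKM (n = 6), and in those numbered 4 of 491 ± 380.3 FPKM (n = 6). CDK1 had means of 33.01 ± 16.7, 5.004 ± 2.75, 9.12 ± 1.55, 28.3 ± 19.4 and 44.4 ± 13.6 FPKM in numbers 1 to 5. The number 4 samples held high and low values of CCNB2, from 118 FPKM in HLO to 965 FPKM in LMO, and the number 1 sample of LSO was low for its number (236 FPKM). CCNB1 was at 168 ± 49.2, 88.6 ± 48.6, 58.3 ± 6.71, 171 ± 125 and 358 ± 129.8 FPKM in numbers 1 to 5. WEE2 was at 47.9 ± 25.9, 16.9 ± 10.1, 20.2 ± 10.9, 36.0 ± 23.3 and 87.4 ± 28.8 FPKM. CCNB3 changed least with the number, between 26.7 ± 4.57 FPKM in number 3 and 37.5 ± 6.49 FPKM in number 5.

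**Figure D3:**
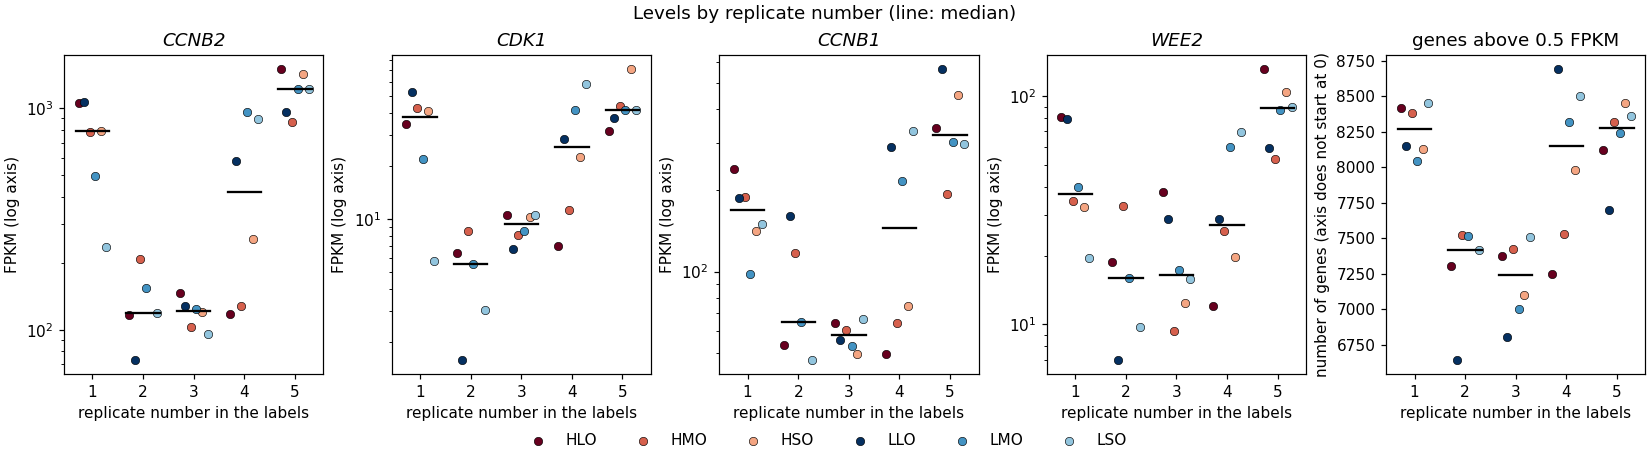
FPKM of CCNB2, CDK1, CCNB1 and WEE2 (vertical axes, log scale) and the number of genes above 0.5 FPKM (last panel, axis not from 0) by the replicate number in the labels (horizontal axis); a point is 1 sample coloured by group and the line is the median of a number. For CCNB2 the samples numbered 2 and 3 lie at or below 209.9 FPKM and those numbered 5 at or above 868 FPKM.

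Other properties of the samples moved with the number as well, and their part in the result was not tested. The number of genes above 0.5 FPKM was 8047 to 8450 in samples numbered 1 and 7699 to 8452 in those numbered 5. It was 6646 to 7527 in samples numbered 2 and 6806 to 7513 in those numbered 3. The summed level of the 14 oocyte markers was 4044 to 5219 FPKM in number 1 and 3833 to 10969 FPKM in number 5, against 1688 to 2947 FPKM in number 2 and 1593 to 2214 FPKM in number 3. The summed level of the granulosa markers overlapped between all numbers, from 6.08 to 39.8 FPKM over all samples. Fewer transcripts of a gene and a different make-up of all RNA cannot be told apart in FPKM.

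The granulosa sum, which was mostly STAR, separated the fertility groups in large and medium follicles, in opposite directions. It was 18.8 to 31.3 FPKM in HLO and 9.01 to 18.3 FPKM in LLO, and 10.0 to 16.6 FPKM in HMO and 21.4 to 39.8 FPKM in LMO. In small follicles it overlapped, at 13.7 to 28.0 FPKM in HSO and 6.08 to 35.8 FPKM in LSO. STAR itself had limma unadjusted p of 0.0429 in large and 0.00509 in medium follicles (adjusted 0.828 and 0.265). The sum mostly describes this gene, since INHA, FSHR, LHCGR, AMH and AMHR2 had medians of 0 FPKM. Among all genes tested, 0.432% in large and 1.7% in medium follicles had groups that did not overlap. The groups of the tested members overlapped at every stage, and the part of the granulosa transcripts in the members' values was not tested.

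The ratio of the cyclin to its kinase was looked at within each sample. CCNB1 exceeded CDK1 in 29 of 29 samples, with a median ratio of 6.93 and a range from 3.31 in HSO replicate 4 to 101 in LLO replicate 2. LLO replicate 2 had the lowest CDK1 of all samples (1.58 FPKM) beside an intermediate CCNB1 (160.2 FPKM), and the next highest ratio was 26.1 in LSO replicate 1. CCNB2 exceeded CDK1 in 29 of 29 samples with a median ratio of 20.3, from 9.10 in LSO replicate 3 to 47.5 in HLO replicate 5. CCNB2 exceeded CCNB1 by a median ratio of 2.44, from 0.458 in LLO replicate 2 to 5.71 in LLO replicate 1. The kinase WEE2 exceeded its substrate CDK1 in 26 of 29 samples, with a median ratio of 1.82.

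**Figure D4:**
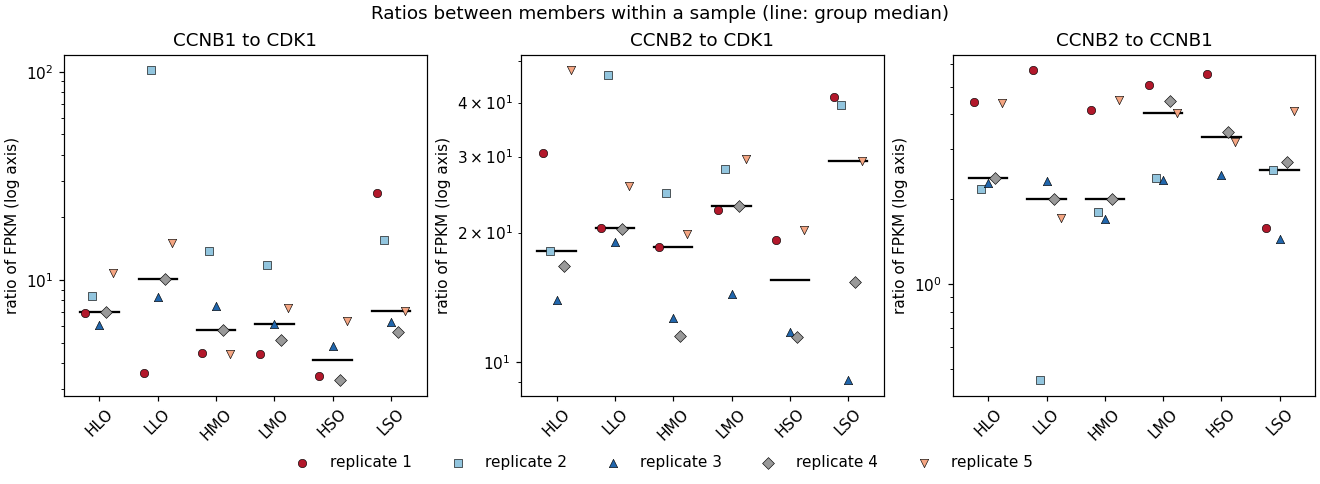
Ratio of the FPKM of CCNB1 to CDK1, CCNB2 to CDK1 and CCNB2 to CCNB1 (vertical axes, log scale) in each sample of the 6 groups (horizontal axis); colour and shape give the replicate number and the line is the group median. The CCNB1 to CDK1 ratio of LLO replicate 2 is 101, and its CCNB2 to CCNB1 ratio of 0.458 is the only one below 1.

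Whether the members rose and fell together was examined after the group and replicate-number means had been removed. This was done because samples of different numbers lay apart in CCNB2 and CDK1. The permutations shuffled the deviations as 29 free values, although removing those means ties the deviations to each other. The permutation p-values in this paragraph are therefore too small. Of the 36 pairs of members, 35 had a positive Spearman rho in these deviations, with a median of 0.43 and a highest of 0.80. By the same permutations 19 of 36 had an adjusted p under 0.05, so a positive relation was common among the members. In these deviations CCNB2 and CDK1 had a Pearson r of 0.91 and a Spearman rho of 0.80 over 29 samples (permutation p = 1e-05 each, the smallest that 100000 permutations can give; adjusted p = 0.00012 and 0.00018 over 36 pairs), and r was 0.87 without the 2 samples farthest from the median of the measure. Within numbers, r was taken on values from which no group means had been removed, so it is a different measure. For CCNB2 and CDK1 it was 0.96 in number 1, 0.88 in number 2 and 0.96 in number 4. It was -0.06 in number 3 and 0.15 in number 5 (n = 5 in number 2 and 6 in the others, no test). CDK1 varied little in number 3 (9.12 ± 1.55 FPKM, SD, n = 6). With so few samples these values cannot show whether the relation held in every number. For CDK1 and WEE2 the deviations gave r = 0.79 and rho = 0.73 (permutation p = 1e-05 and 3e-05, adjusted 0.00012 and 0.00027; r = 0.74 without the 2 farthest samples), with r of 0.71, 0.97, -0.04, 0.90 and 0.02 in numbers 1 to 5. For CCNB1 and CDK1 they gave r = 0.60 and rho = 0.59 (permutation p = 0.00047 and 0.00093, adjusted 0.00242 and 0.00418), and r was 0.42 without the 2 farthest samples. Within numbers 1 to 5 that pair had r of 0.36, -0.28, 0.27, 0.90 and 0.14, highest in number 4 and again not tested. All pairs share the libraries and their composition, and pairs with other genes were not examined in these deviations.

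The genes most like CCNB1 over the 29 samples, by Spearman rho of log2(FPKM + 1), were TADA2A (rho = 0.97, a symbol on 2 rows), MKLN1 (0.96) and EYA3 (0.95). For CDK1 they were ZNF277 (0.94), UBE2N (0.93, a symbol on 3 rows) and NUP43 (0.93), and for WEE2 they were DSN1 (0.94), CCNB2 (0.94) and POLR1C (0.93). CCNB2 ranked 2 of 9654 genes in likeness to WEE2, whereas CDK1 ranked 2084 and CCNB2 741 in likeness to CCNB1. In likeness to CDK1, CCNB2 ranked 740, WEE2 837 and CCNB1 1744, so many other genes followed CDK1 more closely over all samples. The points share libraries that differed by number, and likeness is a description here.

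The wider pathway was described from lists of genes chosen by their known roles. No gene of the 5 lists had an adjusted p under 0.05 in a fertility or stage comparison by limma. Among the partners of the kinase, the small subunits CKS2 and CKS1B, which bind cyclin-dependent kinases, were abundant, with medians of 4580.2 and 4669.7 FPKM, against 8.30 FPKM for CDK2 and 44.2 FPKM for CDK7, the CDK-activating kinase. In fertility comparisons 0 of 10, 0 of 9 and 1 of 9 tested partners had an unadjusted p under 0.05 in large, medium and small follicles, beside 4.14%, 8.67% and 4.41% of all genes; this was CCNE1, cyclin E1, lower in HSO by -0.61 (SE 0.23, limma adjusted p = 0.880). Over all stages CCNE1 was the only 1 of 11 partners (background 9.99%), with a difference of -0.34 (SE 0.15, limma adjusted p = 0.468).

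Of 8 inhibitors and checkpoint kinases 5 could be tested. CHEK1, the checkpoint kinase that restrains CDC25, was the most abundant, from 4.73 to 57.1 FPKM, and PRKACA, a catalytic subunit of protein kinase A, reached at most 0.176 FPKM. The inhibitor of cyclin-dependent kinases CDKN1B had an unadjusted p under 0.05 in large follicles, with a difference of 0.95 (SE 0.43, limma adjusted p = 0.828). CDKN1C, of the same family, had one in small follicles, with a difference of -0.89 (SE 0.39, limma adjusted p = 0.880), and 0 of 5 passed in medium follicles and over all stages. These counts of 1, 0, 1 and 0 of 5 stand beside the same backgrounds of 4.14%, 8.67%, 4.41% and 9.99%.

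All 7 activators of entry were tested. AURKA, a kinase upstream of PLK1, was at 968 to 3130.1 FPKM, and PLK1, which activates CDC25C, at 1.17 to 36.8 FPKM. No activator had an unadjusted p under 0.05 at a single stage; over all stages 1 of 7 did, beside 9.99% of all genes, namely ARPP19, the inhibitor of the opposing phosphatase, with a difference of 0.61 (SE 0.29, limma adjusted p = 0.497). Of 9 phosphatase subunits tested, 1 had an unadjusted p under 0.05, PPP2R1B in medium follicles (background 8.67%), with a difference of -0.73 (SE 0.33, limma adjusted p = 0.565).

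Of the anaphase-promoting complex, its regulators and its E2 enzymes, 19 of 21 were tested, 18 in medium follicles. In large follicles 0 of 19 had an unadjusted p under 0.05 (background 4.14%). In medium follicles 2 of 18 (background 8.67%) had an unadjusted p under 0.05, the subunits ANAPC10 (1.31, SE 0.44, limma adjusted p = 0.358) and CDC16 (0.70, SE 0.32, limma adjusted p = 0.570). In small follicles 2 of 19 (background 4.41%) did, the E2 enzyme UBE2D1 (-0.92, SE 0.39) and the subunit ANAPC13 (1.19, SE 0.51), each with a limma adjusted p of 0.880. Over all stages 3 of 19 (background 9.99%) did, led by FBXO43, an inhibitor of the complex in oocytes (-0.46, SE 0.21, limma adjusted p = 0.473) and ANAPC13 (0.60, SE 0.27, limma adjusted p = 0.476).

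The lists were also compared by replicate number. At an adjusted p under 0.05 by limma, 6 of 11 partners differed (CDK7, CDK2, SPDYA, CCNH, CCNE2 and CKS1B), 1 of 5 inhibitors (CHEK1), 2 of 7 activators (PLK1 and MASTL), 6 of 9 phosphatase subunits (PPP1CA, PPP1CB, PPP1CC, PPP2R2A, PPP2CB and PPP2R1A) and 9 of 19 genes of the anaphase-promoting complex list. These last were UBE2C, ANAPC11, CDC27, ANAPC16, ANAPC7, CDC16, FBXO43, ANAPC15 and ANAPC10. These shares stand beside the 50.5% of all genes that differed between numbers.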

How the data were processed

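RNA of 29 goat oocyte samples was analysed. The authors enriched polyadenylated RNA, mapped the reads to the goat genome, retained unique matches without duplicates and deposited an FPKM value per gene and sample, made with Cufflinks and the Ensembl annotation. The aligner and the genome build are not given in the sources used here, and no coordinates or sequences are printed. Columns were matched to samples by name, and 1 column without a matching sample was not used. No pair of samples held identical values.

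The members, the pathway lists and the tests were chosen with earlier results of these data known. FPKM were taken as deposited and tested as log2(FPKM + 1) where a gene exceeded 0.5 FPKM in 4 or more samples of the comparison. Fertility was tested with limma (moderated test, trend) on the 2 groups; stages, the interaction and pairs of stages were tested on all samples. P-values were adjusted by Benjamini-Hochberg over all genes. Every member was named; CCNB1, CDK1 and WEE2 were given in each comparison, with any member at an unadjusted p under 0.05, and up to 2 pathway genes per list and fertility comparison were named by smallest unadjusted p. The 3 genes with the highest Spearman rho to CCNB1, CDK1 and WEE2 were named. Other values singled out were chosen after they were seen. The fits were tested on simulated data. The software was limma 3.58.1 in R 4.3.3, and scipy 1.17.1, numpy 2.4.6, pandas 2.3.3 and matplotlib 3.10.9 in Python 3.11.15.

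Alternatives were pseudocounts of 0.1 and 0.5, no filter, a stricter filter at 1 FPKM, median-of-ratios factors, array weights, a replicate block, 1 fit over all samples, exact permutation tests and each sample left out in turn.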

Additional observations from a re-analysis of the deposited data

How the results depend on the processing

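Depth could not be read from FPKM, which limits what can be said of CDC25A, CDC25B and PKMYT1. Counts of called members, 0 in every fertility, stage and interaction comparison, changed as follows at an unadjusted p under 0.05. Without a filter 1 member was called in HLO against LLO and 1 in HSO against LSO, PKMYT1 each time (adjusted p = 0.838 and 0.830), 1 in HMO against LMO, the lower CCNB1 row ENSCHIG00000022386, and 1 between stages, CCNB3 in LLO minus LSO. With array weights 2 of 9 members were called in HLO against LLO (CCNB1 and CDC25C), beside 16.5% of all genes. In HMO against LMO 4 of 8 were called (CCNB1, CCNB2, CDK1 and WEE2), beside 39.8%, and 1 after adjustment (CCNB2), beside 12.1%. Over all stages 5 of 9 were called (CCNB1, CCNB2, WEE2, CDC25A and CDC25B, each lower in high fertility), beside 33.8%. The interaction gave 1 of 9 (CDC25C), beside 16.7%. Between stages 2 of 9 were called, CDK1 and CDC25C in HLO minus HSO, beside 16.5%. Counts under the other alternatives, including those without a filter, are given without such a share and are not read as results about the members. For scale, the main fit called, unadjusted, 4.14%, 8.67% and 4.41% of genes between fertility groups in large, medium and small follicles. It called 7.89% for the interaction, 10.8% in LLO minus LMO and 10% in LLO minus LSO. Between stages, a pseudocount of 0.1 gave 1 (CCNB3), median-of-ratios factors 3 (CCNA2, CCNB3 and CDC25C) and the replicate block 2 (CCNB3 and CDC25C in LLO minus LSO). With each sample left out in turn, the interaction count ran from 0 to 1 (1 without LSO replicate 4) and the count between stages from 0 to 2 (1 or 2 without LLO replicates 3, 4 or 5, LSO replicates 3, 4 or 5, HLO replicate 5 or LMO replicate 2); no other count changed beyond 1.5 times. The replicate-number count ran from 7 to 8 when samples were left out.

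Log2 fold changes that changed sign stayed far from the threshold. In HLO against LLO CDK1 was 0.0419 with median-of-ratios factors, and WEE2 was -0.28 with array weights and -0.17 without LLO replicate 2 and LMO replicate 2 together, an alternative added after seeing the data. In HMO against LMO CCNB1 was 0.0322 and CDK1 0.0418 with median-of-ratios factors. In HSO against LSO WEE2 was -0.24 with array weights and -0.29 with the replicate block. With each sample left out, CDK1 ran from -0.79 to 0.30, and WEE2 from -0.17 to 0.74, in large follicles; CCNB1 from -0.36 to 0.26 and CDK1 from -0.46 to 0.22 in medium follicles; CCNB1 from -0.75 to 0.31 and WEE2 from -0.50 to 0.49 in small follicles. The cause of these changes was not tested.

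The labels number the samples in each group without saying that a number marks a shared goat, batch or day. Same-numbered samples of the high and low groups of a stage deviated together with correlations from -0.48 to 0.71; 10 of 14 were above 0.1 and 7 of 14 samples were most like their own number, a hint from the data and not from the design. Since 4 of the 14 were not above 0.1, the numbers were not taken as pairs. The replicate block called 0 members in each fertility comparison and, unadjusted, CCNB3 and CDC25C in LLO minus LSO (limma adjusted p = 0.259 and 0.217).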
